A study of Equus caballus with 2 samples.

Results

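Among unstimulated equine endometrial fibroblasts, the cells that carried VCAM1 transcripts were a minority of 259 of 3865 control cells (6.70%, exact 95% interval 5.93 to 7.54). They were selected on the measured counts themselves: a control cell with at least 20000 unique molecular identifiers (UMIs, each standing for 1 captured transcript), at least 3500 detected genes and under 4% mitochondrial UMIs was kept, and a kept cell with at least 1 VCAM1 UMI was called VCAM1-positive. The other 3606 kept control cells held 0 VCAM1 UMIs and served as the comparison. VCAM1 (ENSECAG00000016735) is therefore a description here and was left out of all comparisons of genes.

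VCAM1 encodes an adhesion molecule of the immunoglobulin superfamily that sits on the cell surface and binds integrins made of an alpha 4 chain (ITGA4) and a beta chain such as ITGB1, which leukocytes carry. It is best known from endothelium, where TNF and IL-1 induce it through the transcription factor NF-kB and where it helps leukocytes leave the blood. Stromal cells of several organs also carry it and hold leukocytes and their precursors in place. Fibroblasts can make chemokines, which draw leukocytes in, and contractile proteins, which mark the myofibroblast state seen in fibrosis.

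The fibroblasts came from 4 mares in mid-luteal phase with healthy or mildly altered endometrium, were grown on collagen-coated hydrogels, and were pooled into 1 droplet library for each treatment. The control cells received medium with 0.1% BSA and nothing else, while the TGF-β1 cells received 10 ng/ml human recombinant TGF-β1 for 24 h in the same medium, and cells given MFGE8 were left out. The mare of origin of each cell was not used here, so a difference between mares and a difference between cells of 1 mare cannot be told apart. The kept control cells held 210497250 UMIs with a median of 50313 per cell, against 219731144 and 43142 in 4513 kept TGF-β1 cells, and 6 barcodes occurred in both libraries, 2 of them among kept cells. With 1 library per condition no test was possible, and all intervals given cover counting error only. No doublets were removed here beyond the stated filter.

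The label of fibroblast held in the VCAM1-positive cells. All 11 fibroblast markers were above 1 UMI per 1000000 UMIs (counts per 1000000, CPM), from 69.8 CPM of FAP, a surface protease, to 8256 CPM of S100A4, and none differed by more than 1.5-fold from the VCAM1-negative cells. The collagen genes COL1A1 (5720 against 5786 CPM) and COL3A1 (4443 against 4525 CPM) and the filament gene VIM (4545 against 4366 CPM) were close to equal. PDGFRA, a growth factor receptor of stromal cells, was the fibroblast marker farthest from equality, at 70.5 against 47.3 CPM.

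Markers of other cell types were near 0 in VCAM1-positive cells apart from genes that fibroblasts also express. Of 10 epithelial markers found in the annotation, 2 (KRT7 and KRT8) reached 1 CPM, 5 including EPCAM had no UMI in any VCAM1-positive cell, and the list summed to 124 CPM in VCAM1-positive against 136 CPM in VCAM1-negative cells. Of 11 endothelial markers 2 reached 1 CPM (ERG and EGFL7), PECAM1 and CDH5 had no UMI, and the sums were 15.9 and 16.6 CPM. EGFL7 alone was past 1.5-fold, at 3.58 against 2.06 CPM (log2 ratio 0.80, interval 0.36 to 1.21). Of 14 immune markers 2 reached 1 CPM (CD14 and CD68), PTPRC, CD3E, CD163 and TYROBP had no UMI, and the sums were 58.1 and 56.7 CPM. Mesothelial markers, of which WT1 and UPK1B reached 1 CPM, summed to 50.8 and 48.3 CPM. Smooth muscle and pericyte markers differed most in their sum, with 864 CPM against 1424 CPM and a median log2 ratio of -0.36 over 8 markers that reached 1 CPM.

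VCAM1 was spread unevenly over the cells that carried it. The 1473 VCAM1 UMIs of the kept control cells came to 6.998 CPM over the whole library and to 95.8 CPM over VCAM1-positive cells. A VCAM1-positive cell held from 1 to 70 UMIs, with a median of 3 and a mean of 5.69. Per cell the level ran from 6.12 to 1061 CPM around a median of 51.1 CPM. The 26 cells with the most VCAM1 UMIs held 44.7% of them, and over all kept control cells the variance of the count was 17.97 times its mean.

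**Figure D1:**
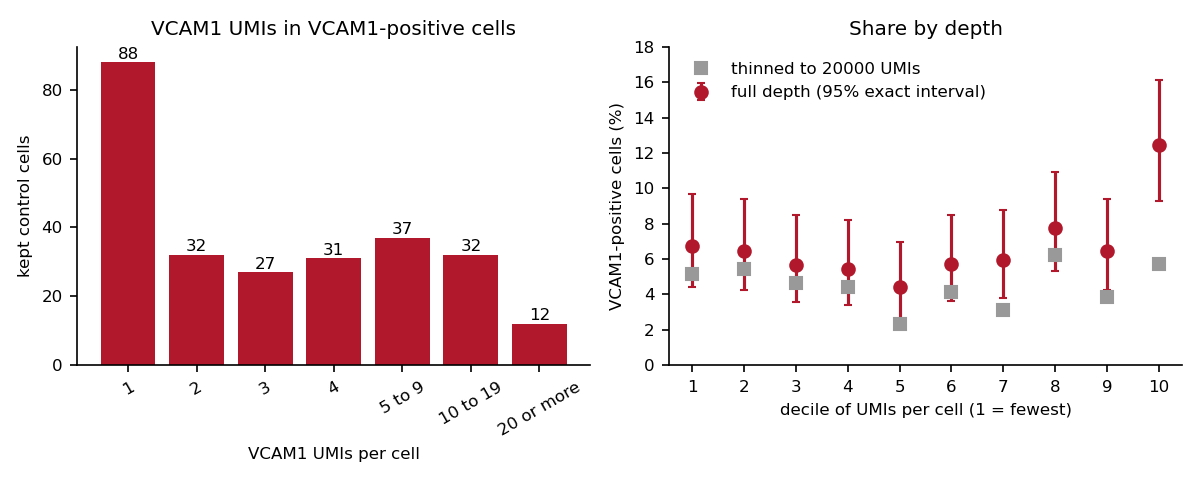
Left, the number of kept control cells (y axis) with each number of VCAM1 UMIs (x axis), 88 with 1 UMI and 12 with 20 or more. Right, the percentage of VCAM1-positive cells (y axis) by decile of UMIs per cell (x axis), at full depth in red with exact 95% intervals and after thinning each cell to 20000 UMIs in grey: the highest decile stood at 12.4% at full depth and at 5.70% after thinning, when the eighth was highest at 6.22%.

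Just inside the threshold lay 88 cells with 1 VCAM1 UMI, which were 34.0% of the VCAM1-positive cells, and just outside lay the 3606 cells with 0. A further 32 cells held 2 UMIs and 139 held 3 or more. Cells with 1 UMI had a median of 51892 UMIs and 1.43% mitochondrial UMIs, against 50120 and 1.48% in cells with 0.

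No cell type that should lack VCAM1 was present to show how many UMIs free RNA alone would give. In the TGF-β1 library, 3 of 4513 kept cells (0.0665%, 0.0137 to 0.194) held a VCAM1 UMI, at 0.0182 CPM. Among the 519 control barcodes that failed the filter, with a median of 3728 UMIs, 11 held a VCAM1 UMI, and VCAM1 stood at 7.92 CPM there, close to its 6.998 CPM over kept cells. How many of the 88 cells with 1 UMI owe it to free RNA was not tested.

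At full depth the share of VCAM1-positive cells was highest among the deepest cells. In the lower 9 deciles of UMIs per cell the share of VCAM1-positive cells lay between 4.39% and 7.77%, with overlapping intervals. The highest decile reached 12.4% (48 of 386 cells, 9.31 to 16.2). Its interval overlapped those of deciles 1, 2, 8 and 9, with upper limits of 9.69%, 9.41%, 10.9% and 9.39%. After each cell was thinned to 20000 UMIs, 174 cells (4.50%, 3.87 to 5.204) still held a VCAM1 UMI. The deciles then lay between 2.33% and 6.22%, the eighth at the top and the highest decile of depth at 5.70%, so that the order seen at full depth did not hold at equal UMIs. VCAM1-positive cells had a median of 53077 UMIs against 50120 in VCAM1-negative cells, and 4467 against 4458 genes per cell after thinning. Mitochondrial UMIs made up 1.38% against 1.48% and ribosomal protein UMIs 16.5% against 16.2%. The 18.5% of VCAM1-positive cells in the highest decile compared with 9.37% of VCAM1-negative cells, and the part of doublets in that decile was not tested. The comparison of genes was therefore made within 10 classes of UMIs per cell of equal size, called deciles.

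In this comparison the UMIs of each gene were summed over VCAM1-positive cells and divided by the number that VCAM1-negative cells of the same depth would give. By the rule for named genes, the largest ratios upward were those of SAA1, CFD, CXCL8, ROBO1, EDNRB, CXCL6 and CCL8, and the largest downward those of ACTG2, ANKRD1, HBA2, INPP4B and NIBAN1. Of 7695 genes that averaged 10 CPM or more, 55 (0.715%) were more than 1.5-fold higher in VCAM1-positive cells and 33 (0.429%) more than 1.5-fold lower, with 8 and 5 past 2-fold. The lower genes numbered 66 when at least 2 VCAM1 UMIs were required and 60 without the highest decile of depth. Both the higher and the lower genes became fewer when cells were also matched on the clusters described below. The median log2 ratio over the 7695 genes was 0.0015 and the middle 90% lay between -0.25 and 0.25. Of the 55 higher genes 47 were higher in each of 4 depth classes of equal size, as were 30 of the 33 lower genes in their direction. These genes were picked on all the same cells together, so agreement across the classes is favoured by the choice. Among the 12073 genes that averaged 1 CPM or more, the basis for the lists below, 251 (2.08%) were higher and 193 (1.6%) lower, around a median of 0.0067.

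**Figure D2:**
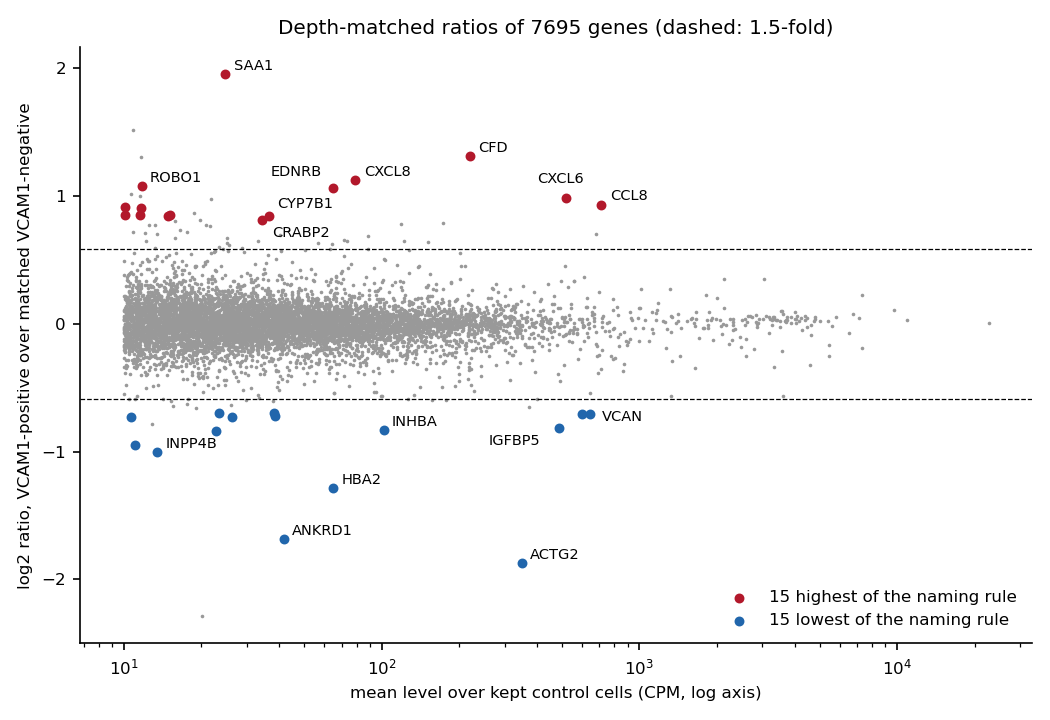
Each point is 1 of 7695 genes, with its mean level over kept control cells in CPM (x axis, log scale) and the log2 ratio of VCAM1-positive over depth-matched VCAM1-negative cells (y axis). Dashed lines mark 1.5-fold; CFD, CXCL8, CXCL6 and CCL8 lie above at levels where most genes are near 0, and ACTG2 lies lowest of the named genes at -1.88.

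Several genes that attract leukocytes stood higher in VCAM1-positive cells. Of 30 chemokine and cytokine genes found, 21 reached 1 CPM, 8 were more than 1.5-fold higher and none more than 1.5-fold lower, 4 were below 0, and the median log2 ratio was 0.36 against 0.0067 over all genes. CCL8, which attracts monocytes, gave the most UMIs, at 1258 CPM in VCAM1-positive and 659 CPM in VCAM1-negative cells (log2 ratio 0.93, interval 0.91 to 0.96). Its level per cell ran from 0 through a median of 784 to 8406 CPM in the former and from 0 through 248 to 9857 CPM in the latter, so the ranges overlapped widely.

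CXCL6, a neutrophil chemoattractant, stood at 945 against 476 CPM (0.99, 0.96 to 1.01), with per-cell medians of 563 and 158 CPM. CXCL8, which attracts neutrophils as well, stood at 157 against 72.1 CPM (1.12, 1.06 to 1.19). It stood at 1.97 without the 5% of each group with most CXCL8 UMIs. That removal took a larger part of the CXCL8 UMIs from VCAM1-negative than from VCAM1-positive cells. The median cell of either group had no CXCL8 UMI, and after thinning 37.8% of VCAM1-positive and 20.5% of VCAM1-negative cells had at least 1. MIP-2BETA, a further CXC chemokine, stood at 277 against 160 CPM, without the same direction in every depth class. CXCL6, CXCL8 and MIP-2BETA belong to a family of similar genes between which reads could be split, so their separate values are uncertain. SAA1, an acute-phase protein, had the largest ratio of the named genes (82.8 against 21.4 CPM, 1.96), and 13 VCAM1-positive cells held 87.8% of its UMIs. Without the 5% of each group with most SAA1 UMIs the ratio was 2.97, from few remaining UMIs. After thinning, SAA1 was detected in 11.6% of VCAM1-positive and 6.82% of VCAM1-negative cells.

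Targets and feedback genes of NF-kB were shifted upward by a smaller amount. Of 28 that reached 1 CPM, 22 were above 0, 3 were past 1.5-fold, none was below -0.10, and the median was 0.26. SOD2, the mitochondrial superoxide dismutase, stood at 61.8 against 38.3 CPM (0.69, 0.59 to 0.79), and TNFAIP2, a TNF-induced gene, at 34.5 against 20.4 CPM (0.76). ICAM1, an adhesion molecule induced by the same cytokines as VCAM1, stood at 26.0 CPM in VCAM1-positive cells, a log2 ratio of 0.45 (0.30 to 0.60). BIRC3, an inhibitor of apoptosis, was counted under 2 identifiers with different ratios and is uncertain. PTX3, an innate immune pattern receptor, was also past the limit, at 1.36 and a level under 10 CPM, and is named after its value was seen.

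**Figure D3:**
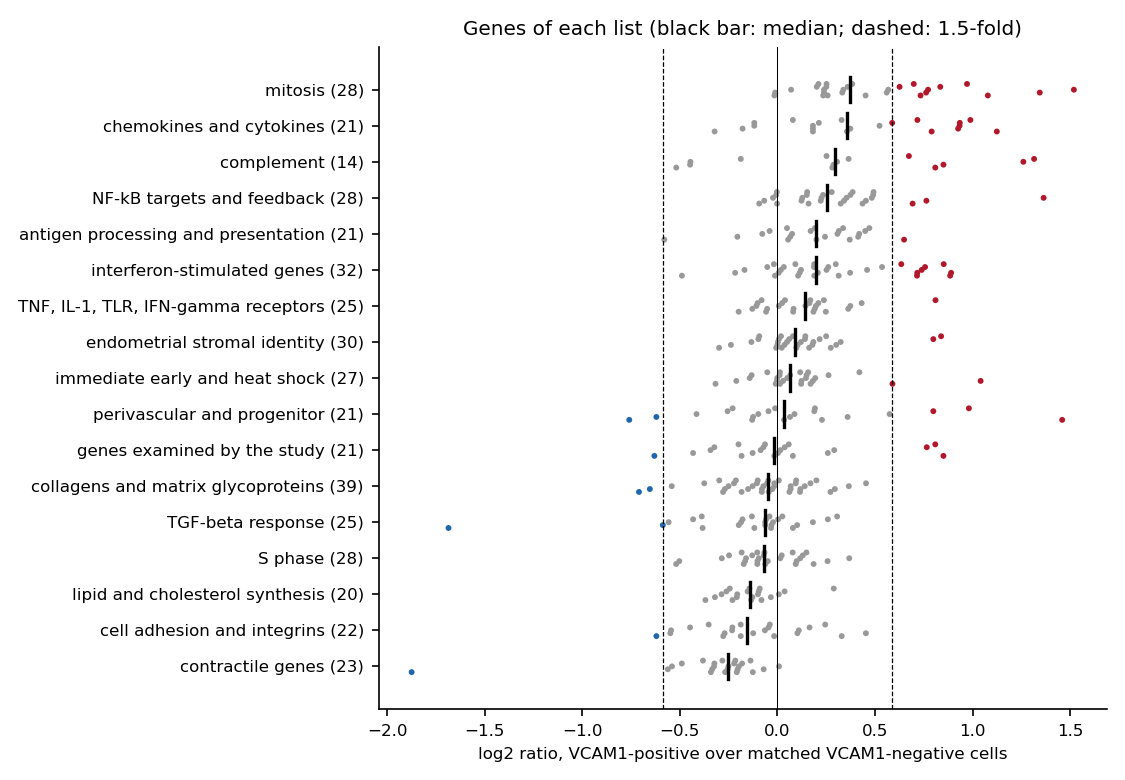
Each point is a gene with at least 1 CPM, placed by its log2 ratio of VCAM1-positive over depth-matched VCAM1-negative cells (x axis) in the row of its list (number of genes in brackets). Black bars are medians, from -0.26 for contractile genes to 0.36 for chemokines and 0.37 for mitosis genes; red and blue points lie past 1.5-fold.

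The receptors and adaptors through which TNF, IL-1, toll-like receptors and interferon gamma signal had a median of 0.14 over 25 genes, with 1 past 1.5-fold. That gene was IFNGR2, a chain of the interferon gamma receptor, at 32.2 against 18.4 CPM (0.81, 0.67 to 0.95). The TNF receptor TNFRSF1A stood at 63.4 against 49.3 CPM (0.36) and CD40 at 16.1 against 11.9 CPM (0.43).

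Of 27 complement genes found, 14 reached 1 CPM, 5 were more than 1.5-fold higher and none lower, 4 were below 0, and the median was 0.30. CFD, the protease factor D of the alternative pathway, stood at 469 against 188.5 CPM (1.31, 1.28 to 1.35). It stood at 1.93 without the 5% of each group with most CFD UMIs, a removal that took a larger part from VCAM1-negative cells. CFD per cell ran from 0 through a median of 77.2 to 6122 CPM in VCAM1-positive cells. In VCAM1-negative cells CFD ran from 0 through 18.97 to 13919 CPM. It was detected in 66.0% and 43.2% of thinned cells. C1S (25.6 against 14.6 CPM) and C1R (37.3 against 23.4 CPM), the proteases of the C1 complex, and SERPING1 (24.8 against 13.8 CPM), which inhibits them, were all higher.

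Interferon-stimulated genes had a median of 0.20 over 32 genes, with 8 past 1.5-fold upward and none downward. BST2, which tethers budding virus, stood at 19.1 against 10.6 CPM (0.85, 0.67 to 1.03) and RIGI, a sensor of viral RNA, at 38.0 against 24.5 CPM (0.63). The 6 others were under 10 CPM over the kept cells. Genes of antigen processing and presentation had a median of 0.20 over 21 genes and 1 past 1.5-fold, the immunoproteasome subunit PSMB10 at 107 against 68.1 CPM (0.65). DRB, a class II chain that is highly variable between animals, went the other way at 23.3 against 34.8 CPM (-0.58). DRB was detected in 23.6% and 42.9% of thinned cells, and the part of differences between mares in this was not tested.

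Contractile genes were lower almost throughout. Of 23 measured, 22 were below 0, 1 was past 1.5-fold, and the median was -0.26. ACTG2, a smooth muscle actin, stood at 102 against 375 CPM (-1.88, -1.95 to -1.80), a 3.67-fold difference. ACTG2 per cell ran from 0 through a median of 0 to 2941 CPM in VCAM1-positive cells and from 0 through 21.1 to 16591 CPM in VCAM1-negative cells, and it was detected in 30.5% and 46.5% of thinned cells. ACTA2, the actin of myofibroblasts, stood at 2573 against 3799 CPM (-0.56), DES, the muscle filament desmin, at 462 against 672 CPM (-0.54), and CNN1, calponin, at 145 against 204 CPM (-0.49). TAGLN stood at 3783 against 4734 CPM (-0.32).

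Genes known to respond to TGF-β were less uniform, with a median of -0.06 over 25 genes, 18 of them below 0 and 2 past 1.5-fold. ANKRD1, a muscle ankyrin repeat protein, stood at 15.6 against 50.2 CPM (-1.69, -1.88 to -1.50), and -0.87 was left once the 5% of each group with most ANKRD1 UMIs were set aside. TGFBI, a matrix protein, stood at 282 against 424 CPM (-0.59), LTBP1, which stores latent TGF-β, at 98.9 against 146 CPM (-0.56), and CCN2 at 167 against 226 CPM (-0.43). INHBA, the chain of activin A, was lower as well at 63.0 against 112 CPM (-0.84). Collagens and matrix glycoproteins had a median of -0.05 over 39 genes with 2 past 1.5-fold, both lower: the proteoglycan VCAN at 424.5 against 694 CPM (-0.71) and COL12A1 at 254 against 400.0 CPM (-0.65). FBLN1, a glycoprotein of elastic and basement matrix, stood higher at 666.5 against 487 CPM (0.45). Matrix genes outside that list were among the 55 higher genes: COL23A1, a transmembrane collagen, at 25.7 against 14.3 CPM (0.84), ECM1 at 188 against 120 CPM (0.65) and TNXB, a tenascin, at 19.1 against 12.6 CPM (0.60). ECM1 and TNXB are named after their values were seen.

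Adhesion genes were mixed. Over 22 adhesion genes the median was -0.16, 16 were below 0, 6 were above 0 including ICAM1, and 1 was past 1.5-fold, downward. ITGB1 stood at 578 against 738 CPM (-0.35, -0.38 to -0.32), ITGA4 at 16.3 against 19.8 CPM (-0.28, -0.47 to -0.09), NCAM1 at 157 against 214 CPM (-0.45) and CDH13, a cadherin, at 49.0 against 71.5 CPM (-0.55).

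Several named genes lay outside these lists. EDNRB, an endothelin receptor, stood at 120 against 57.7 CPM (1.06, 0.99 to 1.13), and it was detected in 73.0% and 49.3% of thinned cells. ROBO1, a receptor for SLIT proteins (1.08), CYP7B1, which hydroxylates oxysterols (0.84), and CRABP2, which binds retinoic acid (0.81), were higher too, as were CLIC2 (0.92), WDR86 (0.91) and C1QTNF12 (0.86). IGFBP5, which binds insulin-like growth factors, stood at 297 against 523 CPM (-0.82), and C1QTNF3, a secreted C1q-related protein, at 391 against 637 CPM (-0.70). INPP4B (-1.003), NIBAN1 (-0.95), FHOD3 (-0.84), SYTL2 (-0.73), CADPS (-0.73), UPP1 (-0.70) and RBFOX1 (-0.70) were lower.

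The lower values of HBA2 and CGA rested on few VCAM1-negative cells. HBA2, a hemoglobin chain with a near-identical copy, stood at 26.4 against 64.5 CPM (-1.29), but 1 VCAM1-negative cell held 3074 of 13222 UMIs, and without the 5% of each group with most HBA2 UMIs the log2 ratio was -0.31. CGA, the hormone alpha chain, moved from -0.72 to -0.14 in the same way.

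Perivascular and progenitor genes went both ways, with a median of 0.03 over 21 genes, a range from -0.76 to 1.46, and 3 past 1.5-fold upward and 2 downward. The 5 were ALDH1A1, ANGPT1 and TCF21 upward and NT5E and MCAM downward, named after their values were seen, and none averaged 10 CPM. PDGFRA (0.57) stood highest among the list's genes over 10 CPM. Endometrial stromal identity genes had a median of 0.09 over 30 genes with 2 upward, and HOXD9 (0.32) and NR2F2 (0.27), transcription factors of the stroma, stood highest over 10 CPM. Immediate early and heat shock genes had a median of 0.07 over 27 genes with 2 upward, among them the receptor NR4A1 (127 against 84.3 CPM, 0.59). Cholesterol synthesis genes had a median of -0.14 over 20 genes, 17 of them below 0 and none past 1.5-fold. HMGCS1, an early enzyme of the pathway, stood lowest at 89.9 against 116 CPM (-0.37).

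The genes examined by the study had a median of -0.02 over 21 of 22, with C1S, SERPING1 and SPOCK3 more than 1.5-fold higher and AREG lower. MFGE8, the protein the study examined, stood at 270 against 282 CPM (-0.06, -0.11 to -0.02), TIMP1 at 3036 against 3192 CPM (-0.07) and FN1 at 1833 against 2003 CPM (-0.13). TGFB1 stood at 24.7 against 20.7 CPM (0.26) and LOX at 63.9 against 72.6 CPM (-0.18). SPOCK3 (8.71 against 5.13 CPM) and AREG (5.27 against 8.16 CPM) were low, and 13 cells held 74.6% and 86.4% of their UMIs in VCAM1-positive cells. PDGFC (-0.34) lay below 0, the intervals of TGFA (0.29), LIF (0.08), PDGFA (0.04) and IGFBP3 (-0.09) spanned 0, while PDGFB had no UMI in VCAM1-positive cells.

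Cell cycle genes gave no steady direction. S phase genes had a median of -0.07 over 28 genes and none past 1.5-fold. Mitosis genes had a median of 0.37 over 28 genes and 10 past 1.5-fold, but 6 VCAM1-positive cells held 57.4% of their UMIs, and the median was -1.45 without the highest decile of depth and -0.04 when each cell weighed the same. Cells with at least 3 mitosis genes after thinning made up 26.6% (21.4 to 32.5) of VCAM1-positive and 31.0% of VCAM1-negative cells. CENPF (1.52) and TOP2A (0.77), 2 of the 55 higher genes, belong to this list, and 13 cells held all CENPF UMIs.

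The values along the VCAM1 count are a description, since VCAM1 chose the cells. The median log2 ratio over the 55 higher genes was 0.60 in cells with 1 VCAM1 UMI, 0.75 with 2 and 0.84 with 3 or more. Over the 33 lower genes it was -0.53, -0.91 and -0.85. Of these genes, 39 of 55 and 25 of 33 lay farther from 0 at 3 or more UMIs than at 1. The genes were picked from all VCAM1-positive cells together, 139 of which had 3 or more UMIs, so both their direction and their size in that class are favoured by the choice.

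Single genes ran differently along the count. CXCL8 went from 0.31 (0.17 to 0.44) at 1 UMI to 1.48 (1.41 to 1.56) at 3 or more, CCL8 from 0.32 to 1.17 and SOD2 from 0.23 to 0.95. EDNRB was at 1.01, 1.09 and 1.09, and ACTG2, farthest from 0 at 1 UMI, at -2.03, -1.77 and -1.80. The NF-kB list had medians of 0.11, 0.22 and 0.38, and the contractile list -0.17, -0.27 and -0.34. The interferon-stimulated list, with 0.20, 0.40 and 0.22, did not order by VCAM1. Neither did the complement (0.33, 0.39 and 0.35), antigen presentation (0.19, 0.30 and 0.24) and adhesion (-0.05, -0.32 and -0.22) lists. The receptor list went from 0.11 to 0.08 and 0.08, and the chemokine list from 0.32 to 0.34 and 0.37.

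**Figure D4:**
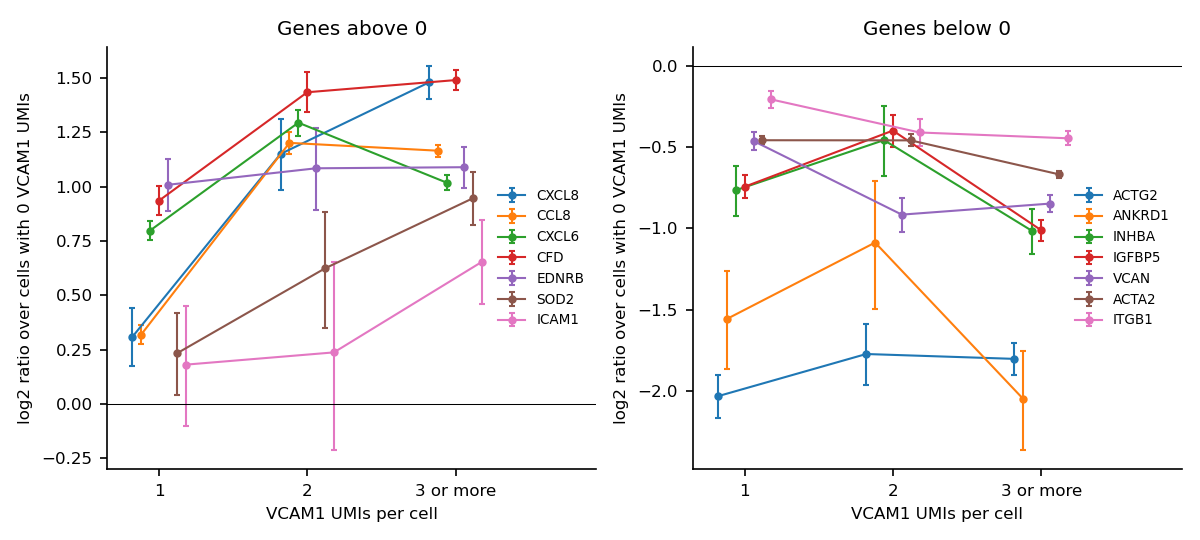
Depth-matched log2 ratio over cells with 0 VCAM1 UMIs (y axis) in cells with 1 (88 cells), 2 (32 cells) and 3 or more (139 cells) VCAM1 UMIs (x axis), for 7 genes above and 7 below 0, with 95% intervals for counting error. CXCL8, CCL8 and SOD2 are lowest at 1 UMI, while EDNRB is at 1.01 there against 1.09 at 3 or more, and ACTG2 at -2.03 against -1.80.

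VCAM1-positive cells lay in nearly all of 8 clusters rebuilt without VCAM1, at different shares. Cluster 3, led by CFD, CRABP2 and DLK1, held 64 in 532 cells (12.0%, 9.39 to 15.1), and cluster 5, led by CA4, HBA2, HMOX1 and CFD, held 40 in 330 cells (12.1%, 8.80 to 16.1). These 2 clusters had the lowest median UMIs per cell of the 8, 41918 and 44418, and held 24.7% and 15.4% of VCAM1-positive cells. Cluster 2, led by KRT7, CEMIP and ANKRD1, had 3.81% (2.57 to 5.43) and cluster 4, led by DLK1 and NOX4, 4.65%. Clusters 0 and 1 stood at 6.70% and 5.24%, the mitotic cluster 6 at 6.19%, and cluster 7 held 0 of 28 cells (exact upper limit 12.3%). Thinned to 20000 UMIs, clusters 3 and 5 stood at 8.84% and 9.70% and the others at or below 4.14%. A coarser clustering (resolution 0.3) had a highest share of 7.81% (6.545 to 9.24) at full depth. A finer clustering (resolution 0.8) had a highest share of 12.4% (9.09 to 16.3).

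**Figure D5:**
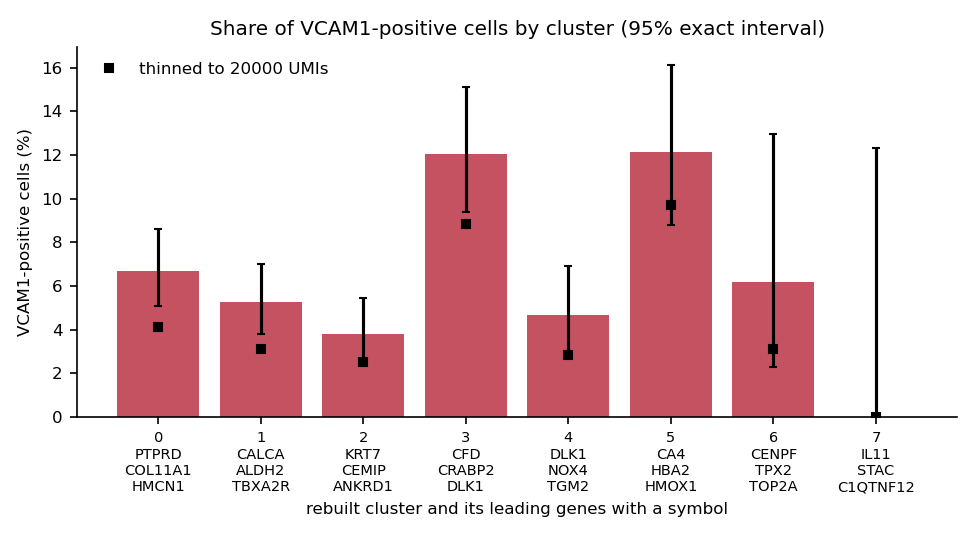
Percentage of VCAM1-positive cells (y axis) in each of 8 rebuilt clusters, named by number and leading genes (x axis). Bars are at full depth with exact 95% intervals and squares are after thinning to 20000 UMIs; clusters 3 and 5 stand near 12% and the intervals of clusters 0, 1, 2 and 4 lie wholly below theirs.

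Since CFD was among the leading genes of both clusters 3 and 5 and stood among the higher genes, the comparison was repeated within clusters. Matching on cluster and depth together gave 32 higher and 11 lower genes past 1.5-fold, and 23 of the 30 named genes moved outside their counting interval without a change of sign, with log2 ratios of 0.83 for CFD, 0.98 for CXCL8, 0.80 for CCL8, 0.72 for EDNRB and -1.63 for ACTG2. Within each of the 6 clusters with at least 20 VCAM1-positive cells, CFD, CXCL6, CCL8, EDNRB, ROBO1 and SERPING1 were above 0 and ACTG2, ANKRD1, INHBA, IGFBP5 and VCAN below 0. The size varied: EDNRB ran from 0.03 to 1.31, CFD from 0.12 to 1.15, ROBO1 from 0.15 to 1.20, CXCL6 from 0.49 to 1.13 and CCL8 from 0.31 to 1.23. ACTG2 ran from -2.69 to -0.23 and ANKRD1 from -3.24 to -0.23. CXCL8 ran from -0.34 in cluster 5 to 2.22 in cluster 1, and SAA1 from -3.21 to 3.63. Further genes of the 30 also crossed 0 in at least 1 cluster. Of the higher genes, these were C1QTNF12 (lowest -1.56), WDR86 (-0.46), COL23A1 (-0.43) and BST2 (-0.18). Of the lower genes, these were NIBAN1 (highest 0.78), CGA (0.33), C1QTNF3 (0.16), SYTL2 (0.12) and FHOD3 (0.02). The rest of the 30 kept their direction in all 6 clusters.

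KRT8, a keratin that marks a further set of control cells, stood at 107 against 115 CPM and was detected in 26.3% and 25.5% of thinned cells.

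The 7 highest and 5 lowest named genes were also read in the TGF-β1 library, beside all kept control cells. SAA1 was at 7.52 CPM after TGF-β1 and 24.8 CPM in the control, CFD at 34.97 and 219.5 CPM, CXCL8 at 58.5 and 79.2 CPM, ROBO1 at 6.503 and 11.7 CPM, EDNRB at 27.5 and 64.7 CPM, CXCL6 at 223 and 519 CPM, and CCL8 at 281 and 713 CPM. ACTG2 was at 965 CPM after TGF-β1 and 349 CPM in the control, ANKRD1 at 321 and 41.7 CPM, HBA2 at 41.3 and 64.7 CPM, INPP4B at 39.2 and 13.5 CPM, and NIBAN1 at 9.57 and 11.1 CPM. CRABP2, further down the higher genes, was at 127 and 34.3 CPM, and CGA, among the lower, at 24.3 and 38.6 CPM. Treatment and library cannot be told apart in these values.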

How the data were processed

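Endometrial fibroblasts of 4 mares were pooled per treatment and made into 1 droplet library each. The authors deposited UMI counts per gene and barcode, made with Cell Ranger against EquCab3.0 and Ensembl genes. Version 7.1.0 is stated for Cell Ranger in the methods, but the count files carry 8.0.1. The study's filter and its removal of doublets, called from reads with Souporcell, had not been applied to the deposited counts. The filter was applied here, doublets were not called, and cells of high depth were left out as an alternative. Of 21426 genes, 5196 had no symbol.

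The VCAM1-positive cells, the 17 gene lists and the 6 marker lists were chosen with earlier results of these data known, so lists are described by counts and medians only. UMIs of each gene were summed over VCAM1-positive cells and divided by those expected from VCAM1-negative cells of the same decile of UMIs per cell. Levels are CPM, and ratios have no pseudocount. Intervals at the 95% level are Clopper-Pearson, on the UMIs of VCAM1-positive cells and the equivalent UMIs of VCAM1-negative cells for ratios. UMIs are molecules, but cells of 1 library are not replicates. The depth of 50313 UMIs per median cell gave a median half-width of 0.12 on the log2 scale for genes of at least 10 CPM.

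Named genes are, among genes with a symbol and at least 10 CPM whose direction held in all 4 depth classes, the 15 largest ratios each way; up to 4 genes of each list with at least 10 CPM farthest from 0; and the marker genes and genes examined by the study, of which some are not reported here. A few further genes are named to describe a list, after their values were seen. Thinning drew 20000 UMIs per cell. Clusters were rebuilt in scanpy 1.11.5 with leidenalg 0.10.2 (VCAM1 left out, 2000 variable genes, 30 components, 20 neighbours, resolution 0.5). Python 3.11.15, numpy 2.4.6, scipy 1.17.1, pandas 2.3.3 and matplotlib 3.10.9 were used. The ratio was tested on simulated sums with counting error only and no variation between cells of a depth decile. That test does not cover genes whose UMIs lie in few cells. The study's edgeR tests between clusters were not repeated.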

Additional observations from a re-analysis of the deposited data

Results flagged for a closer look

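VCAM1 UMIs also occurred outside the kept cells. Of the 519 control barcodes that failed the filter, 11 (2.12%, 1.06 to 3.76) held at least 1 VCAM1 UMI, 30 UMIs in all. These barcodes were used in no comparison. Of 611 TGF-β1 barcodes that failed the filter, 0 held a VCAM1 UMI (exact upper limit 0.602%).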

How the results depend on the processing

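No paired analysis was possible because each condition was 1 library without a replicate number, and for the same reason no replicate could be left out. The counts of 55 higher and 33 lower genes stayed within 1.5 times under other depth matching, thinning, a per-cell mean, size factors and other cell filters. Matching on rebuilt cluster and depth gave 32 and 11, a minimum of 5 CPM 93 and 57, a minimum of 25 CPM 25 and 18, a 2-fold limit 8 and 5, and a looser fold limit 217 and 200. Lower genes numbered 66 (and higher genes 62) with at least 2 VCAM1 UMIs required, and 60 (and 63) without the highest decile of depth. The last setting, cells with exactly 1 VCAM1 UMI and the removal of the 5% of cells with most UMIs of a gene were added after seeing the data. The share of VCAM1-positive cells moved from 6.70% to 4.50% after thinning, and the highest share in a cluster from 12.1% to 7.81% at resolution 0.3. Of 420 values of the 30 named genes under alternatives, 288 stayed within their counting interval, 132 moved and 0 changed sign. Those 30 were picked from these same cells for large ratios with 1 direction in all 4 depth classes. The lack of sign changes is favoured by that choice. In cells with exactly 1 VCAM1 UMI, RBFOX1 was at -0.06 and SAA1 at 0.73. Without the cells with most of their UMIs, SAA1 was at 2.97, CXCL8 at 1.97 and CFD at 1.93. Of 299 list medians, 267 moved by at most 0.1. The medians of the chemokine, NF-kB, receptor, complement, interferon, antigen presentation, contractile, adhesion, matrix, TGF-β response, stromal identity and cholesterol lists kept their sign under each alternative, while those of the mitosis, S phase, immediate early, progenitor and study lists and of the immune, mesothelial and fibroblast markers changed sign under at least 1. The cause of these moves was not tested. Depth limits genes under 10 CPM and any split of the 88 cells with 1 UMI.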
